A study of Saccharomyces cerevisiae with 12 samples.

Results

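The features described here are the small nucleolar and small nuclear RNA genes of the budding yeast Saccharomyces cerevisiae, taken as every row of the deposited count table whose identifier starts with snR. There were 81 such rows among 7192 features. Of these, 47 are box C/D RNAs, 29 are box H/ACA RNAs and 5 are spliceosomal RNAs (U1, U4, U6 and both forms of U5). At least 10 counts in at least 6 of 12 samples were found for 74 of them, namely 43 of the box C/D, all 29 of the box H/ACA and 2 of the spliceosomal RNAs. The rule used identifiers and counts over all samples, not the difference between groups.

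The series compared wild-type yeast that received no treatment with wild-type yeast incubated with Cyclina sinensis lectin (CSL), a clam protein that binds N-acetylgalactosamine and mannose, with 6 samples in each group. Cultures of both kinds were shaken in the rich medium YPD until mid-logarithmic growth. The labels give no strain, lectin dose, treatment time or buffer control. The design text calls the replicates biological without saying whether each came from its own culture, so p-values measure the spread between these samples. Title numbers serve as sample names: the control samples are 2, 3, 4, 6, 7 and 8, and the lectin samples 2, 3, 4, 5, 6 and 8. Library totals ran from 17303313 to 21354011 counts.

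Small nucleolar RNAs guide the chemical modification and folding of ribosomal RNA in the nucleolus. Box C/D RNAs mostly direct methylation of ribose, box H/ACA RNAs direct the conversion of uridine to pseudouridine, and a few of either kind are needed for cutting the ribosomal precursor. Most yeast members are transcribed from their own promoters, some are cut from a shared precursor and a few lie in introns of protein genes. Their mature forms carry no poly(A) tail, whereas precursors and RNAs marked for decay can receive short tails from the TRAMP complex before trimming by the nuclear exosome. The libraries were made after oligo(dT) enrichment, so a count here belongs to the part of each RNA that was captured. Mature, precursor and tailed forms cannot be told apart in these counts. In bulk samples, fewer cells with an RNA and less RNA per cell cannot be told apart.

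The sequences shown first belong to the pair of box C/D RNAs that guide base acetylation, because they moved in opposite directions with lectin. In the R64 reference, snR4 is at chrV:424698-424883 on the plus strand and snR45 at chrXVI:821732-821903 on the plus strand, and neither overlaps another annotated gene. Both direct the acetyltransferase Kre33 to cytosines of 18S ribosomal RNA, at position 1280 for snR4 and at position 1773 for snR45, counted from the 5′ end of the 18S rRNA. Capitals mark the D box letters CTGA near the 3′ end and the longest run that is exactly complementary to the 18S rRNA within 25 bases of the acetylated cytosine.
snR4: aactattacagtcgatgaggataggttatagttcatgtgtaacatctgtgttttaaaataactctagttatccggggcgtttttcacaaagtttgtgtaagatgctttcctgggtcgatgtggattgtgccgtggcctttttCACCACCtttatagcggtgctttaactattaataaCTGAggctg
snR45: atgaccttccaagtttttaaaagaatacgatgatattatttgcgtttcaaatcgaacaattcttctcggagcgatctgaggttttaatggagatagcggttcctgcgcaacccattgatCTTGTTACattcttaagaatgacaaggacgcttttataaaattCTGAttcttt

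The target sites in the 18S rRNA gene RDN18-1, on the minus strand of chromosome XII, are shown with the acetylated cytosine in capitals. They lie at chrXII:456438-456467 for position 1280 and at chrXII:455945-455974 for position 1773.
Site of snR4: tggtggtgcatggcCgttcttagttggtgg
Site of snR45: cgtaacaaggtttcCgtaggtgaacctgcg
The run in snR4 was 7 bases long and matched 2 overlapping places in the window, and a run of that length was also held by 19 of the 81 members (23.5%, snR4 included). The run in snR45 was 8 bases long, and 8 of the 81 members (9.88%, snR45 included) held a run of that length within its window. These matches are descriptions of the letters only.

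The box C/D RNAs whose counts changed are shown with the C box letters TGATGA and the D box letters CTGA in capitals, snR63 and snR66 being higher and snR48, snR78 and snR59 lower with lectin. Among the 47 box C/D members, 36 (76.6%) held TGATGA in their first 20 bases and 45 (95.7%) held CTGA in their last 20, read on the RNA strand. In the 6021 protein-coding genes of the reference, the same windows at the ends of the annotated gene held TGATGA in 0.98% and CTGA in 9.65%. Neither snR4 nor snR45 held the exact letters TGATGA in its first 20 bases.
snR63: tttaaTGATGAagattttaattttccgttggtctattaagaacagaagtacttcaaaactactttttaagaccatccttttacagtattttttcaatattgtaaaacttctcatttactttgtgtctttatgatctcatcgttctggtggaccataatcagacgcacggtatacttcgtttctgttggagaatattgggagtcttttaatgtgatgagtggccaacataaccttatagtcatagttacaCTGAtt
snR66: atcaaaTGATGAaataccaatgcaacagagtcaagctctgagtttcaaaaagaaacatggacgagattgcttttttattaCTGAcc
snR48: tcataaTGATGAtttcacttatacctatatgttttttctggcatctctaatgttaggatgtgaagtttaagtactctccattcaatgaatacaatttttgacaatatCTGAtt
snR78: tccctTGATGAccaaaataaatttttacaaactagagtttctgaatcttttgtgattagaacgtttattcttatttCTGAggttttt
snR59: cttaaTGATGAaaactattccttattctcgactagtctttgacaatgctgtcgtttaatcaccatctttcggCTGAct

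The higher box H/ACA RNAs, snR81 and snR31, are shown with the last letters ACA of the annotated RNA in capitals, ACA being the box that gives the class its name. In 14 of the 29 box H/ACA members (48.3%), ACA stood exactly 3 bases before the annotated end, against 1.15% of protein-coding genes. Neither snR81 nor snR31 is among these 14, since the marked letters lie farther from their annotated ends, so the capitals mark a match of letters only.
snR81: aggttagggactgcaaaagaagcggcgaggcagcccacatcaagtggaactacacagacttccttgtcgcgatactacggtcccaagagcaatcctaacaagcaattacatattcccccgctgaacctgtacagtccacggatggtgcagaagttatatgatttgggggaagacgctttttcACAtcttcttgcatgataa
snR31: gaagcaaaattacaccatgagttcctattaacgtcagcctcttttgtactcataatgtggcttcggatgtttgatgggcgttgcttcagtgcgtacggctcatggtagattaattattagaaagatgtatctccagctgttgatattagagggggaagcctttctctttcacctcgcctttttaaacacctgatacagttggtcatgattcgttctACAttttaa

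The members were a small part of each library. Together they held 767 ± 62.2 CPM (counts scaled to the library total) in the control and 874 ± 55.2 in the lectin samples (SD, n = 6 each). A single RNA, snR4, made up 15.6% to 17.4% of the member counts in the control samples and 25.01% to 27.3% in the lectin samples. Without snR4, the sum was 638 ± 54.1 CPM for controls and 643 ± 36.9 with lectin (SD, n = 6).

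Per kilobase of annotated length, the median normalized count (counts divided by DESeq2 size factors) was 597 for the 43 tested box C/D RNAs and 461 for the 29 box H/ACA RNAs. For the 5771 tested protein-coding genes it was 982. The level of snR4 was 17824 per kilobase, above 96.4% of the protein-coding genes, followed among members by snR57 at 4725 and snR87 at 3997. At 293 per kilobase, snR45 lay above 10.4% of them. Annotated lengths ran from 78 to 1004 bases with a median of 136. The longest run of adenosines within a member was 2 to 8 bases with a median of 4, and it was 4 in snR4. In 79 of the 81 members every window of 50 bases occurs once in the genome, and the exceptions were snR17a and snR17b, the pair of U3 genes.

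With lectin, 12 of the 74 tested members (16.2%) changed at an adjusted p under 0.05 in DESeq2's Wald test fitted and adjusted over all 6237 tested features. This was a smaller share than the 31.5% of all tested features that were called. By direction, 5 members (6.76%) rose, where 15.4% of all tested features did, and 7 (9.46%) fell, where 16.1% did. The members had fewer counts than most features, with a median of 79.0 against 1180.1 normalized counts, and thus wider errors, with a median SE of 0.155 against 0.0609 on the log2 scale. Among the 414 tested features with mean counts between the quartiles of the members, members included, 19.3% were called, 16.7% higher and 2.66% lower. That range leaves out the members with the fewest and the most counts, and of the called members only snR45 and snR81 lie in it. The shares of these 414 are thus not matched in counts to those of all 74 members. No member reached an absolute log2 fold change of 1, which the study asked for besides the adjusted p, while 0.257% of all tested features and 1.21% of those 414 did.

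The estimates of the members lay mostly below 0. Of the 74, 48 were below and 26 above, with a median log2 fold change of -0.10, beside 0.0017 over all tested features. The median was -0.13 for box C/D, with 3 called higher and 4 lower of 43, and -0.0078 for box H/ACA, with 2 higher and 3 lower of 29. Over all tested features, 15.4% were called higher and 16.1% lower. The number called higher was 8 when control 3 was left out, snR9, snR30 and snR84 being added. Without control 3, 1779 of all tested features were called in either direction. When per-sample offsets for length and GC content, fitted on protein-coding genes, were used, 15 members were called lower and 4 higher, and the median of the members' estimates was -0.16. Over all 6237 tested features, 2196 were called in either direction with the offsets, against 1965 without them. The split of those 2196 by direction was not tabulated, so the 15 lower members have no matching share.

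**Figure D1:**
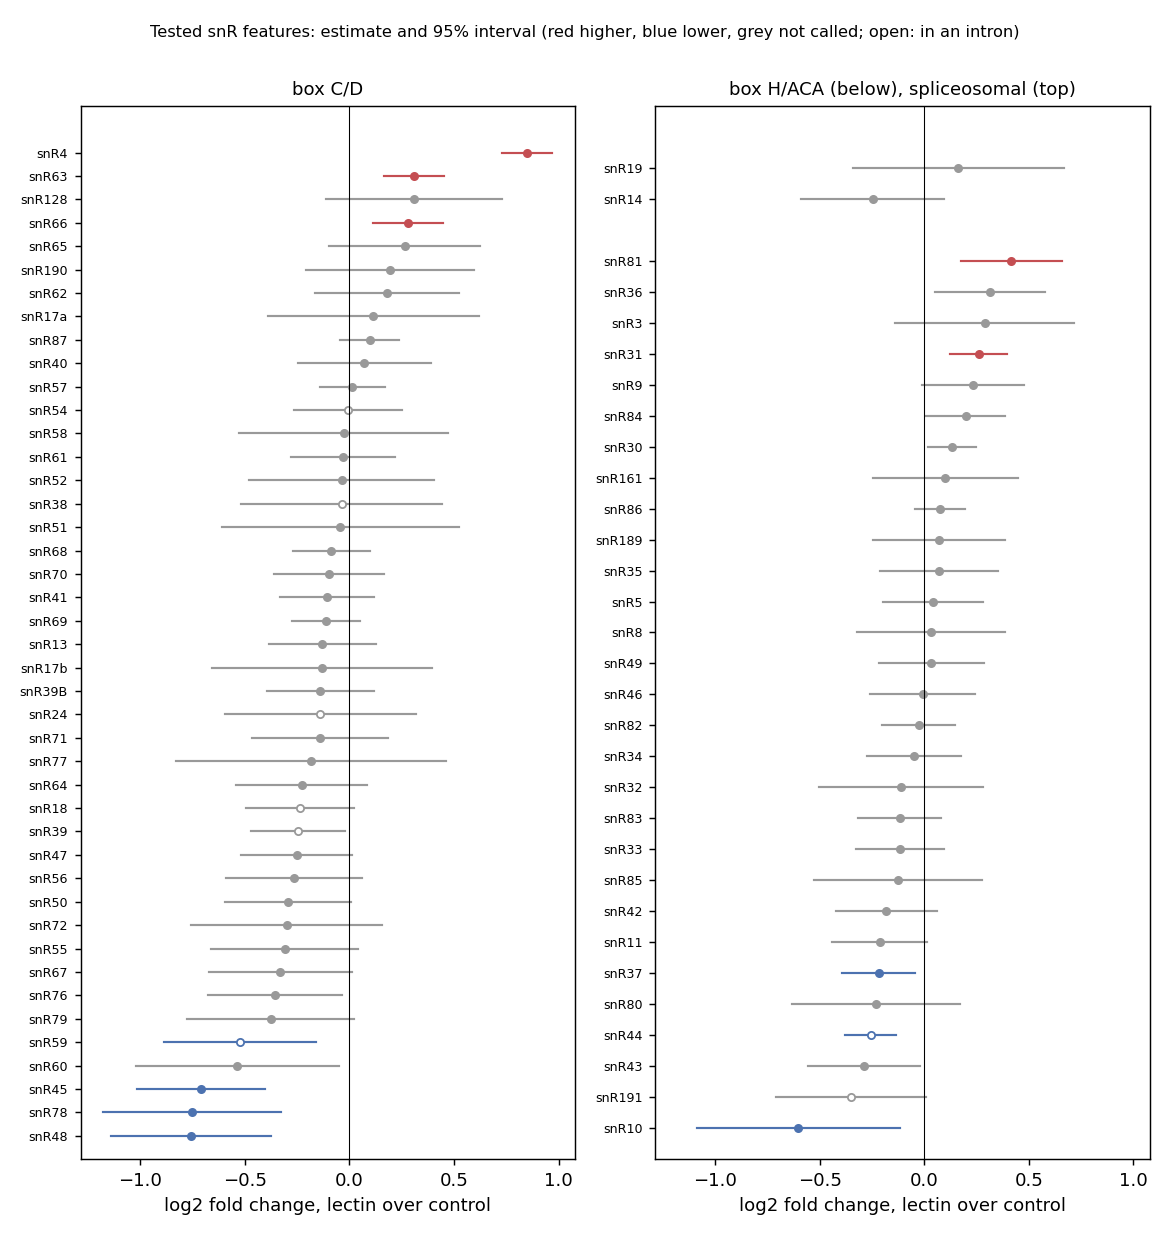
Log2 fold change (lectin over control, x axis) of each of the 74 tested members, with its 95% interval, for box C/D RNAs on the left and box H/ACA and spliceosomal RNAs on the right. Red points were called higher, blue lower and grey not called, and open points lie in an intron: snR4 stands apart at 0.85, and the lowest estimates are those of snR48 and snR78.

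The strongest change was in snR4. Its normalized counts were 2222 to 2619 in the control samples with a median of 2299.5, and 3626 to 4612 in the lectin samples with a median of 4334. Every lectin sample lay above every control sample, and lectin 2 was the lowest of the lectin samples. The log2 fold change was 0.85 ± 0.0619 (SE), a 1.80-fold rise (adjusted p = 3.1e-40 in DESeq2's Wald test and 2.3e-08 in edgeR's quasi-likelihood test).

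The other acetylation guide, snR45, went the opposite way. Its control samples held 53.4 to 71.9 normalized counts with a median of 61.9, and its lectin samples 29.8 to 51.1 with a median of 36.4. The groups did not overlap, and lectin 5 was the highest of the lectin samples. The log2 fold change was -0.71 ± 0.157 (SE; adjusted p = 6.6e-05 in DESeq2 and 0.00097 in edgeR).

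The ratio of snR4 to snR45 was 36.03 to 42.1 in the control samples and 84.6 to 145 in the lectin samples. On the log2 scale it was 5.24 ± 0.0868 and 6.82 ± 0.292 (SD, n = 6), a difference of 1.58, given as a description because the groups of each RNA were already apart in opposite directions. The pair was set apart as acetylation guides with an earlier result for snR4 known. KRE33, the acetyltransferase gene, averaged 1469 ± 70.4 normalized counts without and 1409 ± 171 with lectin (SD, n = 6). Its log2 fold change was -0.06 ± 0.0717 (SE; DESeq2 adjusted p = 0.561).

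Among the other box C/D RNAs, those that rose were snR63 and snR66, which both guide methylation of the large-subunit ribosomal RNA. The values of snR63 were 358 to 438 normalized counts in the control samples, median 403, and 468 to 558 in the lectin samples, median 476. Its groups did not overlap, and the log2 fold change was 0.31 ± 0.0733 (SE; DESeq2 adjusted p = 0.00021). For snR66 the control samples held 185 to 257 normalized counts, median 209.6, and the lectin samples 224 to 274, median 265. Control 2 lay among the lectin samples, and the log2 fold change was 0.28 ± 0.0854 (SE; DESeq2 adjusted p = 0.0054). With the length and GC offsets it was 0.16 and was not called (adjusted p = 0.146).

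The box C/D RNAs that fell besides snR45 were snR48, snR78 and snR59, all guides of large-subunit methylation with at most 51.6 normalized counts in any sample. Of these, snR48 and snR78 were named after their values were seen. The control samples had 31.5 to 49.6 normalized counts of snR48, median 46.6, and the lectin samples 19.4 to 30.98, median 25.8. No lectin sample reached a control sample, and the log2 fold change was -0.76 ± 0.195 (SE; DESeq2 adjusted p = 0.00073). For snR78 the range was 28.8 to 49.8 in the control, median 33.4, and 14.9 to 29.1 with lectin, median 20.2. Its highest lectin sample, lectin 6, passed its lowest control sample, control 7, and the log2 fold change was -0.75 ± 0.217 (SE; DESeq2 adjusted p = 0.0031).

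The groups did not overlap in 4 members, namely snR4, snR63, snR45 and snR48. This was 5.41% of the 74, where 12.6% of all tested features had groups that did not overlap. Among the 414 features with mean counts between the quartiles of the members it was 7.73%. Of the 4 members named, only snR45 had a mean count in that range.

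Of the box H/ACA RNAs, snR81 and snR31 rose. The first guides pseudouridylation of both the large-subunit ribosomal RNA and the U2 spliceosomal RNA. Its control samples held 76.03 to 126 normalized counts, median 102, and its lectin samples 119.7 to 163, median 133. Only control 8 lay within the lectin range, and the log2 fold change was 0.42 ± 0.124 (SE; DESeq2 adjusted p = 0.0042). The small-subunit guide snR31 had 412 to 508 normalized counts in the control samples, median 477, and 501 to 620.4 in the lectin samples, median 562. Control 2 and control 7 passed the lowest lectin sample, and the log2 fold change was 0.26 ± 0.0700 (SE; DESeq2 adjusted p = 0.0013).

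The box H/ACA RNAs that fell were snR44, snR37 and snR10. The intron-hosted snR44, which guides sites in both ribosomal subunits, had 548 to 673 normalized counts in the control samples, median 603, and 465 to 551 in the lectin samples, median 509.9. Only lectin 6 and control 6 crossed, and the log2 fold change was -0.26 ± 0.0623 (SE; DESeq2 adjusted p = 0.00034).

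The calls of snR37 and snR10 were weak. The large-subunit guide snR37, also known for a structural role in early assembly of that subunit, had 251 to 323 normalized counts in the control and 215 to 287 with lectin, and a log2 fold change of -0.22 ± 0.0882 (SE). Its adjusted p was 0.0446 in DESeq2 and 0.061 in edgeR, and the call was lost without any of control 2, 3, 4 or 8 or lectin 2, 3, 4 or 6. In snR10, which is needed for early cuts of the ribosomal precursor, the control samples had 17.2 to 27.9 and the lectin samples 11.1 to 18.8 normalized counts. Its log2 fold change was -0.60 ± 0.248 (SE; adjusted p = 0.0477 in DESeq2 and 0.0290 in edgeR), and the DESeq2 call was lost without control 2, control 6, lectin 2 or lectin 8. Without control 7, control 8, lectin 3 or lectin 4, DESeq2's filter on low counts gave it no adjusted p, so it was not called there either. The annotation places snR10 over another gene, YGL088W, which had 0 to 6 counts per sample, and how reads shared by both were counted is not given in the sources used here.

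**Figure D2:**
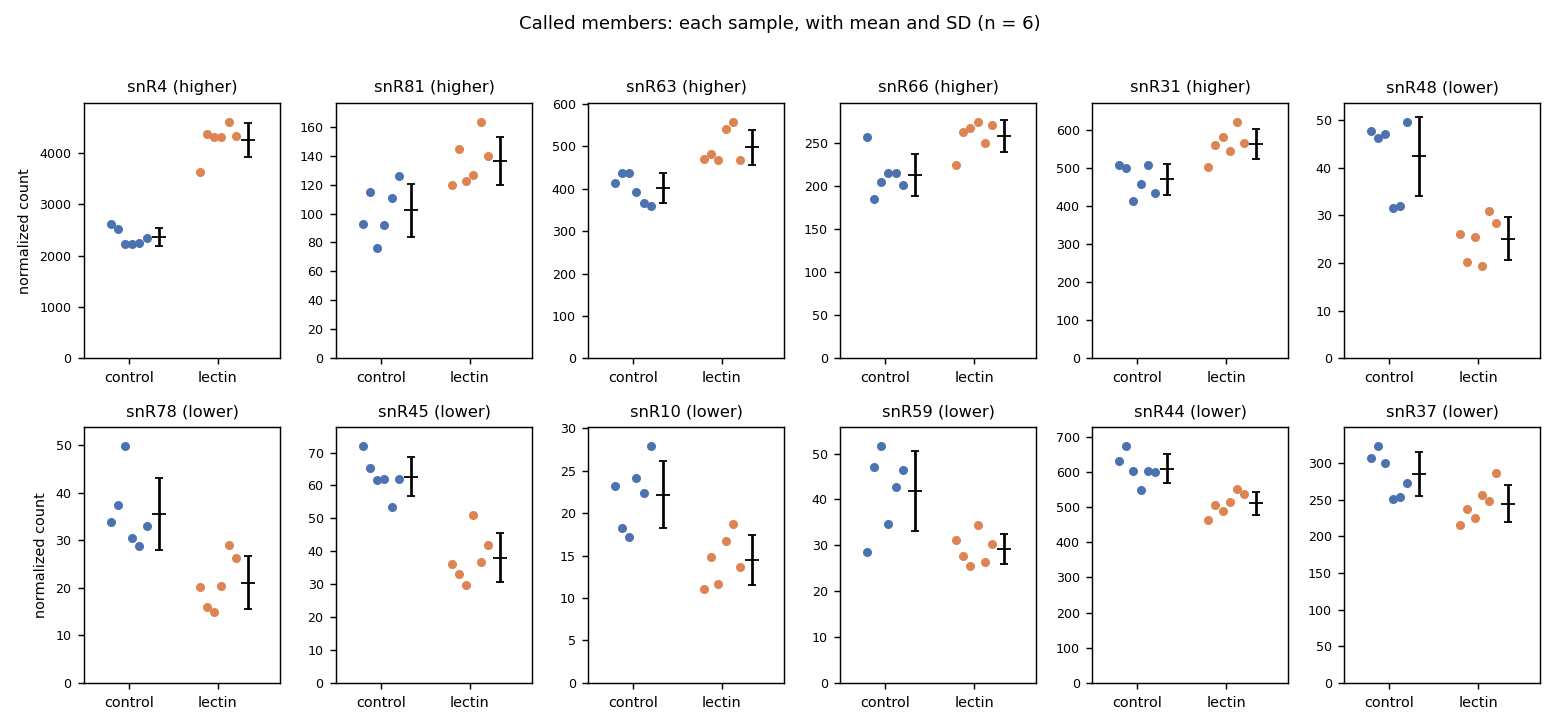
Normalized counts (y axis, from 0) of the 12 called members in each control (blue) and lectin (orange) sample, with the mean and SD (n = 6) as black bars. The groups are apart in snR4, snR63, snR45 and snR48 and cross in the other panels.

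The 8 members placed by the annotation in introns of protein-coding genes were compared with their hosts, since such a snoRNA is cut from the spliced intron of its host's transcript. All 8 passed the filter, and every estimate was below 0, with a median of -0.24 on the log2 scale. Estimates below 0 were also found for 48 of all 74 tested members and for 32 of the 43 box C/D RNAs. The estimate of snR54 turned above 0 without control 3, 4 or 7 or lectin 2 or 5, that of snR38 without control 2 or 4 or lectin 2 or 3, and that of snR24 without control 2 (0.0059). Of the 8 intron-hosted members, 2 were called lower and 0 higher (3 lower and 0 higher at an unadjusted p under 0.05), where 16.1% of all tested features were called lower. The 8 host genes had a median log2 fold change of 0.05, with 5 estimates above 0 and 3 below, and 2 of them fell. The difference between a member and its host was not tested. Reads of an intron-hosted snoRNA and of its unspliced host transcript cannot be told apart in these counts.

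The called members were snR44 and snR59. With snR44 down by the amount given above, its host RPS22B, a small-subunit ribosomal protein gene, averaged 4058 ± 232 normalized counts without and 4363 ± 327 with lectin (SD, n = 6). The log2 fold change of the host was 0.10 ± 0.0561 (SE; DESeq2 adjusted p = 0.144). The counts of snR44 were 15.04% of those of RPS22B in the control and 11.7% in the lectin samples on average. The guide snR59 had 28.5 to 51.6 normalized counts in the control samples, median 44.6, and 25.5 to 34.4 with lectin, median 28.9. Its groups overlapped through control 2, the lowest control sample, and its log2 fold change was -0.52 ± 0.186 (SE; DESeq2 adjusted p = 0.0199). Without control 3 or control 4 that call was lost, with adjusted p-values of 0.0523 and 0.0654 in DESeq2. It was also lost with a block for the shared replicate numbers and without both control 3 and lectin 4 (DESeq2 adjusted p = 0.129 and 0.104). The host of snR59, the large-subunit ribosomal protein gene RPL7B, had a log2 fold change of -0.05 ± 0.0869 (SE; DESeq2 adjusted p = 0.705).

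The remaining intron-hosted members did not pass the test. The paralog of RPL7B, RPL7A, fell by 0.27 ± 0.108 on the log2 scale (SE; adjusted p = 0.0383 in DESeq2 and 0.0617 in edgeR), and the RNA in its intron, snR39, which guides the same large-subunit adenosine as snR59, had an estimate of -0.24 ± 0.114 (SE; DESeq2 adjusted p = 0.0869). That snoRNA was called lower with the length and GC offsets (-0.35, DESeq2 adjusted p = 0.0067), in the 10 samples with shared numbers (-0.30, DESeq2 adjusted p = 0.0458) and without control 7 (-0.28, DESeq2 adjusted p = 0.0496). TEF4, a translation elongation factor gene, fell by 0.26 ± 0.0663 (SE; DESeq2 adjusted p = 0.00068), while its snR38, with 14.5 to 23.5 normalized counts in the control and 11.7 to 25.5 with lectin, had an estimate of -0.04 ± 0.245 (SE). For snR18 in EFB1 the estimate was -0.24, beside 0.08 for the host. The estimate for snR24 in ASC1 was -0.14, beside 0.02, and that for snR54 in IMD4 was -0.0057, beside 0.09. For snR191 in NOG2 it was -0.35 ± 0.183 (SE; DESeq2 adjusted p = 0.135), beside 0.09, and without control 2, the lowest control sample at 40.2 normalized counts, snR191 was called lower at -0.47 (DESeq2 adjusted p = 0.0142).

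**Figure D3:**
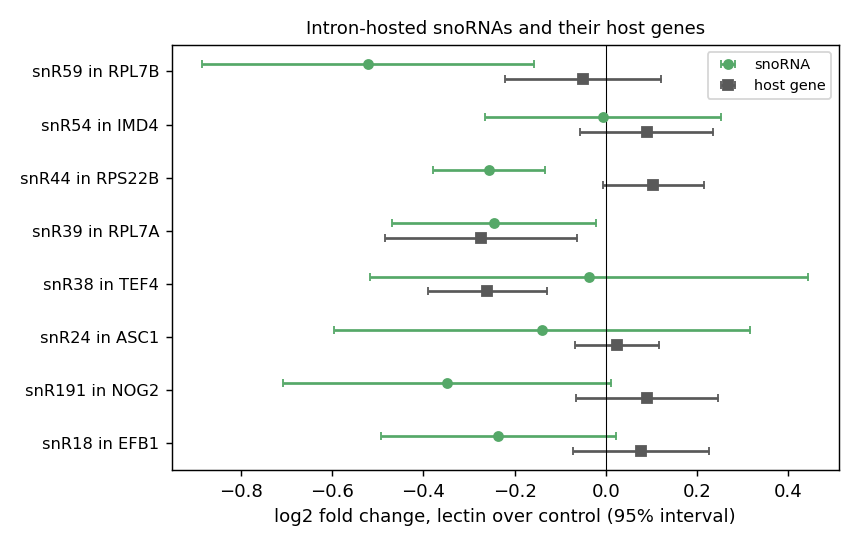
Log2 fold change (lectin over control, x axis) with 95% intervals for the 8 intron-hosted snoRNAs (green circles) and their host genes (grey squares). Each snoRNA estimate lies at or below 0, and 5 of the 8 host estimates lie above it.

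Members that share a precursor were next set side by side. In the 5 listed clusters, 13 of 17 members passed the filter, 1 was called lower (snR78) and 0 higher (2 lower and 0 higher at an unadjusted p under 0.05), where 16.1% of all tested features were called lower and 15.4% higher. The largest cluster runs from snR78 to snR72. Its tested members had log2 fold changes of -0.75 for snR78, -0.35 for snR76, -0.30 for snR72 and -0.18 for snR77, with standard errors of 0.164 to 0.328. The untested snR75, snR74 and snR73 of the same cluster had medians of 8, 4 and 0.5 raw counts. In the cluster of snR57, snR55 and snR61 the estimates were 0.01, -0.31 and -0.03, in that of snR41, snR70 and snR51 they were -0.11, -0.10 and -0.04, and in snR67 the estimate was -0.33. Members of 1 cluster share a transcript and are not independent.

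The RNAs needed for cutting the ribosomal precursor gave wide errors apart from snR30. U3, encoded by snR17a and snR17b, had 273 to 452 and 226 to 637 normalized counts of snR17a in the control and lectin samples, and 133 to 219.9 and 113 to 332 of snR17b. The groups overlapped, with log2 fold changes of 0.11 ± 0.257 and -0.13 ± 0.268 (SE). Lectin 4 was the highest sample for both, at 637 and 332. The annotation places snR17a over another gene, IRC13, and how shared reads were counted is not given in the sources used here. Without lectin 4 the estimate for snR17a was -0.11 and that for snR17b -0.45, and snR17b was then called lower (DESeq2 adjusted p = 0.0024).

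The U1 RNA snR19 followed the same samples, at 277 to 485 normalized counts in the control and 271 to 732 with lectin, again highest in lectin 4. Its log2 fold change was 0.16 ± 0.257 (SE; DESeq2 adjusted p = 0.672), and -0.08 without lectin 4. SCR1, the RNA of the signal recognition particle, which has no poly(A) tail, had 273 to 972 normalized counts in the control samples and 267 to 1552 in the lectin samples, highest in control 3 and lectin 4. SCR1 thus varied 5.82-fold between samples, snR17a 2.81-fold, snR17b 2.94-fold and snR19 2.71-fold, while snR30 varied 1.33-fold. With the SCR1 level as a covariate, added after the data were seen, the SE of snR17a fell to 0.0729, that of snR17b to 0.124 and that of snR19 to 0.0828. The estimates were then 0.0040, -0.27 and 0.05, and none was called (DESeq2 adjusted p = 0.976, 0.0894 and 0.724). U3 and U1 had already been seen to peak in lectin 4 like SCR1, so the smaller standard errors are given as a description only.

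**Figure D4:**
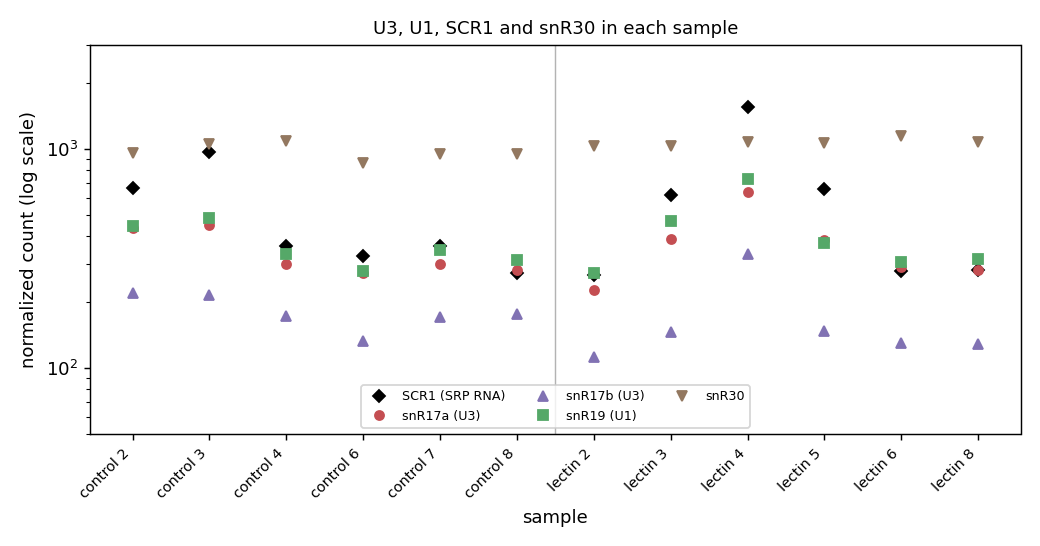
Normalized counts (log scale, y axis) of SCR1, the U3 genes snR17a and snR17b, the U1 gene snR19 and the box H/ACA RNA snR30 in each of the 12 samples (x axis). SCR1, U3 and U1 are all highest in lectin 4, at 1552, 637, 332 and 732, while snR30 stays between 864 and 1148.

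U14 (snR128) and snR190, cut from a common precursor, were also highest in lectin 4, at 128 and 94.6 normalized counts. Their log2 fold changes were 0.31 ± 0.213 and 0.20 ± 0.205 (SE; DESeq2 adjusted p = 0.277 and 0.499). The box H/ACA RNA snR30, which is essential for making 18S rRNA, had 864 to 1089.7 normalized counts in the control and 1030.2 to 1148 with lectin. Its log2 fold change was 0.13 ± 0.0585 (SE; DESeq2 adjusted p = 0.0694), and it was called higher when control 3 or control 4 was left out (adjusted p = 0.0381 and 0.0141).

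Among the other spliceosomal RNAs, snR14 (U4) had 36.2 to 59.2 normalized counts in the control and 28.3 to 55.3 with lectin, with a log2 fold change of -0.25 ± 0.174 (SE; DESeq2 adjusted p = 0.289). U2, named LSR1 in the table and therefore no member, averaged 574 ± 110.5 normalized counts without and 765 ± 115 with lectin (SD, n = 6). Its rise was 0.41 ± 0.116 on the log2 scale (SE; DESeq2 adjusted p = 0.0023), and 0.39 with the SCR1 covariate (DESeq2 adjusted p = 5.1e-06). The U2 groups overlapped, with control 2 at 663 and control 3 at 757 above the lowest lectin sample at 641, and lectin 4 was highest at 970. NME1, the RNA of RNase MRP, rose by 0.26 ± 0.0742 (SE; DESeq2 adjusted p = 0.0025). Its groups overlapped through control 3, at 350 against 345 in lectin 2. RPR1, the RNA of RNase P, had an estimate of 0.16 ± 0.0770 (SE; DESeq2 adjusted p = 0.108). SCR1 itself had an estimate of 0.31 ± 0.510 (SE; DESeq2 adjusted p = 0.691).

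RNA polymerase III, which also makes transfer RNAs, transcribes snR52 and the U6 gene snR6. The median of snR52 was 23.4 normalized counts in the control samples and 20.2 in the lectin samples, whose ranges overlapped, with a log2 fold change of -0.04 ± 0.226 (SE; DESeq2 adjusted p = 0.925). Without control 3 or lectin 4 that estimate was 0.013 or 0.00075. U6 had 1 to 13 raw counts per sample and was not tested.

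In all, 62 tested members were not called, 21 with an estimate above 0 and 41 below. For 32 of these the 95% interval of the log2 fold change lay between -0.5 and 0.5, and for the other 30 it reached past one of these bounds, so a change of that size was not excluded at this depth. Well-counted examples with narrow intervals were snR86, the longest annotated member, at 0.08 (interval -0.04 to 0.20) with 1855.6 normalized counts on average, and snR57 at 0.01 (interval -0.14 to 0.17). Besides U6, the 7 untested members were snR7-L, snR7-S, snR53, snR73, snR74 and snR75. Nearest to the filter were snR75, which had 10 counts in 5 samples, and snR77, which had them in 10. The forms of U5 overlap almost fully in the annotation, and snR7-L had 0 to 2 and snR7-S 0 raw counts in each sample.

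The protein-coding genes that make, assemble and process these RNAs changed in both directions. Of 45 listed genes, all tested, 10 rose and 4 fell, beside 15.4% and 16.1% of all tested features, and the median log2 fold change was 0.04. Among core proteins, GAR1 of the box H/ACA particle averaged 2397 ± 163 normalized counts without and 1977 ± 124 with lectin (SD, n = 6), with no overlap between the groups. It fell by 0.28 ± 0.0565 (SE; DESeq2 adjusted p = 1.1e-05). NOP56 of the box C/D particle fell by 0.17 ± 0.0508 (SE; DESeq2 adjusted p = 0.0047). The estimates for the other box C/D core genes were -0.23 for NOP1, -0.16 for NOP58 and -0.19 for SNU13, and those for CBF5, NHP2 and NOP10 of the box H/ACA particle were 0.0040, -0.08 and 0.04, none of them called.

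Of 9 assembly factor genes, 2 rose and 1 fell, where 15.4% and 16.1% of all tested features did. TAH1 and PIH1, partners in the complex that assembles box C/D particles, rose by 0.46 ± 0.0968 and 0.23 ± 0.0505 (SE; DESeq2 adjusted p = 2.4e-05 and 4.9e-05). Their groups did not overlap, but for PIH1 the highest control sample (1351.3) was close to the lowest lectin sample (1355.2). Apart from GAR1, the other called pathway genes had groups that overlapped, while 12.6% of all tested features had groups that did not. RVB2, a helicase gene acting with TAH1 and PIH1, fell by 0.15 ± 0.0408 (SE; DESeq2 adjusted p = 0.0012). Of the 3 genes whose proteins end snoRNA transcription, NRD1 and NAB3 rose, each by 0.21, with standard errors of 0.0739 and 0.0832 (DESeq2 adjusted p = 0.0161 and 0.0424), and SEN1 had an estimate of 0.12 ± 0.0516 (SE; DESeq2 adjusted p = 0.0737). The precursor-cutting enzyme gene RNT1 rose by 0.19 ± 0.0750 (SE; DESeq2 adjusted p = 0.0403). In edgeR the adjusted p was 0.0603 for NAB3 and 0.0501 for RNT1.

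Of 14 genes of the nuclear exosome and its cofactors, 4 rose and 1 fell, beside the 15.4% and 16.1% of all tested features. The exosome cofactor genes MPP6 and LRP1 rose by 0.38 ± 0.0954 and 0.18 ± 0.0468 (SE; DESeq2 adjusted p = 0.00049 and 0.00073). Smaller rises were called for the cap subunits RRP4 and CSL4, at 0.13 and 0.12 (DESeq2 adjusted p = 0.0477 and 0.0373), and the ring subunit MTR3 fell by 0.15 (DESeq2 adjusted p = 0.0491). In edgeR the adjusted p was 0.0655 for RRP4 and 0.0555 for MTR3. RRP6, the exosome nuclease that trims snoRNA ends, had an estimate of -0.10 ± 0.0563 (SE; DESeq2 adjusted p = 0.191). Among TRAMP and poly(A) polymerase genes, AIR1 rose by 0.14 ± 0.0501 (SE; DESeq2 adjusted p = 0.0242), and PAP2, TRF5, AIR2, MTR4 and PAP1 were not called.

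The nearest upstream protein-coding gene on the same strand was looked up for the 10 called members outside introns, since reads that run on from such a gene could add to a member. RPS26B, which ends 386 bases before snR4, fell by 0.11 ± 0.0391 (SE; DESeq2 adjusted p = 0.0154). The other 9 neighbours, at 482 to 3073 bases, were not called, with estimates from -0.09 for CLU1 upstream of snR78 to 0.10 for AIM39 upstream of snR81. Counts of a neighbour do not measure reads past its end, so whether such reads reached a member was not tested.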

How the data were processed

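Per the submitters' processing notes and the series design text, the authors trimmed paired-end reads with fastp, aligned them with HISAT2 to R64 and deposited raw read counts per feature from featureCounts, from libraries described as poly-A selected and strand-specific. Versions, annotation, strand setting and multi-mapping treatment are not given in the sources used here. Without a strand setting, reads from overlapping genes on opposite strands cannot be told apart.

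The members, lists and tests were chosen with earlier results of these data known. A feature needed 10 or more counts in 6 or more samples, and the 6237 that passed entered the DESeq2 1.42.0 Wald test (R 4.3.3; median-of-ratios size factors, Benjamini-Hochberg adjustment), the tool the design text names, in place of edgeR 4.0.16, which was an alternative. Intervals are 95% Wald intervals. The fits were tested on simulated data. A floor of 3 counts is 0.140 to 0.173 CPM and covers counting error only. Positions, lengths and sequences are from NCBI RefSeq R64, in which all 81 members were found. Genes were named by rule: called members with the largest changes and a mean of at least 50 counts, intron-hosted members and hosts, members with special roles, spliceosomal and other stable RNAs, and called pathway genes. Named outside this rule were snR48 and snR78, cluster members, snR9, snR84, snR86 and snR87, uncalled pathway genes and upstream neighbours. TLC1 was not analysed here. Offsets for length and GC used mgcv 1.9.3.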

Additional observations from a re-analysis of the deposited data

Results flagged for a closer look

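Dixon's test at the 95% level was applied to the 6 values of each group for 26 named members and SCR1. It singled out 1 sample in 4 of 54 such sets, and 2.7 would be singled out by chance. In lectin 4, snR17b was at 332 normalized counts (331.5), against 113 to 148 in the rest of its group. SCR1 reached 1552 in lectin 4, against 267 to 656. For snR4, lectin 2 was lowest of its group at 3626, with the rest at 4306 to 4612 and every control lower still. For snR52, lectin 6 was at 26.3 (26.28), against 18.1 to 20.5.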

How the results depend on the processing

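Of the 12 called members, 8 (snR4, snR31, snR44, snR45, snR48, snR63, snR78 and snR81) kept their call in each alternative that tested them, and 4 (snR10, snR37, snR59 and snR66) lost it in some. The count of 7 lower members became 3 with a mean of at least 50 counts, where 51 members were tested, 15 with the length and GC offsets, and 4 with the replicate block. Over all tested features, these fits called 1956 of 5847, 2196 of 6237 and 1730 of 6237 in either direction, against 1965 of 6237 in the main fit. The numbers 2, 3, 4, 6 and 8 occur in both groups, but deviations of same-numbered samples correlated at -0.116 to 0.183, so they were not taken as pairs. With the replicate block 4 members were higher, and the same 10 samples without it gave 6 higher and 8 lower. Without the block, 2342 of all 6237 tested features were called in those samples. With one sample left out, 5 to 8 members were higher and 5 to 9 lower. Calls over all 6237 tested features then ran from 1646 to 2419, both directions together.

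Of 585 values of 26 named members under the alternatives, 530 kept direction and side of the threshold, 29 were weaker, 8 stronger and 18 changed sign, the last in members that had not been called. Fits that gave a called member no adjusted p, as for snR10 above, were left out of the 585. An uncalled member without an adjusted p counted as keeping its side of the threshold. With one sample left out, the estimates ran from -0.063 to 0.060 for snR54, -0.133 to 0.064 for snR38, -0.127 to 0.013 for snR52, -0.112 to 0.223 for snR17a, -0.082 to 0.260 for snR19 and -0.309 to 0.0059 for snR24. In snR54 the sign also changed with the replicate block (0.12) and in those 10 samples without it (0.12). Without control 3 and lectin 4 it changed in snR17a (-0.013) and snR52 (0.050). The cause was not tested. The SCR1 covariate, the removal of control 3 with lectin 4 and the fit without independent filtering were added after the data were seen. They gave 5, 4 and 5 higher and 5, 5 and 7 lower members, and called 1896, 1470 and 1965 of all 6237 tested features. The median log2 change over all features stayed within -0.00054 to 0.0031 in every fit. The tested box C/D members had a median of 65.8 normalized counts and a median SE of 0.165.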
